A study of Mus musculus with 76 samples.

Results

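Cytotoxic lymphocyte genes were followed in 38 subcutaneous tumors of Balb/c mice, in which catalase had been placed outside or inside the tumor cells. The set held 10 genes of the 55536 in the count table, found by their symbols: the granule genes Nkg7, Gzma, Gzmb, Prf1 and Ctsw, the receptor genes Klrd1, Klrk1 and Ncr1, the coreceptor gene Cd8a and the cytokine receptor gene Il2rb. All 10 were present, and each was compared over 7 groups of tumors. The clearest difference lay between the tumor models: every one of the 10 genes was lower in 4T1 than in CT26 tumors, by 6.34- to 49.1-fold among tumors given alum alone. No gene of the set passed the main test in any comparison of catalase with its control. With no filter on low counts, Gzma and Gzmb passed for catalase inside 4T1 cells.

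CT26 is a colon carcinoma line and 4T1 a mammary carcinoma line, both of Balb/c origin. Mice received 1e+06 CT26 cells or 5e+05 cells of a 4T1 line on day 0, an intratumoral injection on day 6 by the labels, and tumor harvest on day 8. The study's account of its RNA sequencing experiment places the injection and the harvest a day later. CAT-ABP is catalase joined to an alum-binding peptide, which holds the enzyme on alum in the tumor (extracellular catalase, EC CAT). Tumors received 20 ug CAT-ABP with 100 ug alum, or the 100 ug alum alone. The groups were CT26 CAT-ABP + alum (6 tumors), CT26 alum (5), 4T1 CAT-ABP + alum (6), 4T1 alum (5), 4T1-CAT CAT-ABP + alum (5), 4T1-CAT alum (5) and 4T1-control alum (6). 4T1-CAT cells carried a lentiviral, doxycycline-inducible human catalase of the cytoplasm with GFP (intracellular catalase, IC CAT), and 4T1-control cells carried GFP alone. Mice with either engineered line ate a DOX diet from day 4, so alum was shared by all 7 groups and the diet only by the engineered lines. Human catalase and GFP were not analysed here, so the transgene was not checked in these counts.

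Cytotoxic lymphocytes, which are CD8 T cells and natural killer (NK) cells, kill target cells by releasing the content of secretory granules. Perforin, the product of Prf1, opens the target membrane, and granzymes such as those of Gzma and Gzmb are serine proteases that then act inside the target. Receptors decide when the granules are released: NKG2D (Klrk1) and NKp46 (Ncr1) activate, CD94 (Klrd1) pairs with NKG2 proteins, and CD8 alpha (Cd8a) binds class I molecules beside the T cell receptor. The IL-2 receptor beta chain (Il2rb) passes on IL-2 and IL-15 signals, on which these cells depend. NKG7 is a membrane protein of the granules, and cathepsin W (Ctsw) is a cysteine protease found in cytotoxic cells.

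RNA of whole tumors was counted at the 3′ end of transcripts, in 2 technical libraries per tumor, which were summed. The 76 libraries held 46233 to 6958626 counts with a median of 2075009, and 7 of them held under 518752. Summed tumors held 493044 to 9077549 counts. The lowest totals were those of 4T1-control alum replicate 2, at 493044, and of 4T1 CAT-ABP + alum replicate 4, at 837403. The index tags in the deposited library table divided the tumors: all CT26 tumors, all 4T1 CAT-ABP + alum tumors and 4T1 alum replicates 1 and 2 shared one pair of tag sets, and the other 19 tumors shared another. There, 2 libraries, technical replicate 2 of 4T1-CAT alum replicates 2 and 3, carry the same full tag, although their counts differed in 14318 of 14646 genes. Levels below are CPM, the counts of a tumor scaled to its library size on a common TMM scale over the 38 tumors. With whole tumors, fewer cytotoxic cells and less RNA per cell cannot be told apart.

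In CT26 tumors the median count per tumor ran from 33 for Cd8a to 1879 for Gzma, and no CT26 tumor was at 0 for any of the 10 genes. In the 27 tumors of the 4T1 lines Gzma, Gzmb and Nkg7 had medians of 57, 90 and 53 counts, Il2rb and Klrk1 had 24 and 22, and the other 5 genes had 4 to 10. Klrd1 and Cd8a were marked as having few counts, a median under 10 per tumor, in all 5 groups of the 4T1 lines, Prf1 in 4 of them, and Ncr1 and Ctsw in 3. Cd8a was at 0 in 4 of the 27 tumors, Klrd1 in 4, Ctsw in 2, Prf1 in 1 and Il2rb in 1.

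Granzyme A stood far apart between the models. The 5 CT26 alum tumors held 377, 307, 392, 599.5 and 454 CPM of Gzma, and the 5 4T1 alum tumors held 8.22, 10.1, 5.48, 8.40 and 11.5 CPM. The CT26 CAT-ABP + alum tumors ran from 83.6 through a median of 274 to 579.8 CPM, and their 4T1 counterparts from 7.47 through 11.1 to 27.5 CPM. All CT26 tumors were above all 4T1 tumors under either injection. Among the 4T1 lines the order of medians was 4T1-CAT alum (19.4 CPM), 4T1-CAT CAT-ABP + alum (13.2), 4T1 CAT-ABP + alum (11.1), 4T1-control alum (10.9) and 4T1 alum (8.40), and each group overlapped the next.

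Granzyme B and perforin showed the same split. Gzmb read 267, 264, 252, 293 and 183 CPM in CT26 alum tumors against 13.01, 15.9, 11.3, 15.2 and 13.9 CPM in 4T1 alum tumors. For Prf1 the values were 59.3, 56.7, 46.6, 61.7 and 33.1 CPM against 2.40, 0.577, 0.913, 1.80 and 0.786 CPM. The Prf1 reads in 4T1 tumors were few, and 4T1 CAT-ABP + alum replicate 4 had none. In CT26 CAT-ABP + alum tumors Prf1 spanned 10.5 to 61.4 CPM and Gzmb 68.2 to 296 CPM, each about as high at the top as in alum tumors and far lower at the bottom.

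Nkg7 and Ctsw completed the granule genes. Nkg7 read 174, 237, 173, 245 and 186 CPM in CT26 alum tumors and 7.53, 7.78, 6.94, 9.84 and 8.65 CPM in 4T1 alum tumors. Ctsw was sparser, with 13.7, 11.7, 11.6, 11.2 and 6.52 CPM against 2.05, 0.865, 2.01, 1.44 and 1.05 CPM. The groups did not overlap for either gene.

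Among the receptors, Klrk1 read 50.6, 63.0, 47.8, 30.3 and 26.6 CPM in CT26 alum tumors against 6.51, 2.59, 3.47, 5.76 and 2.88 CPM in 4T1 alum tumors. Ncr1, a marker of NK cells, read 29.6, 47.4, 24.2, 27.03 and 18.4 CPM against 3.42, 2.31, 1.28, 1.68 and 0.524 CPM. Klrd1 ranged from 7.93 to 12.2 CPM against 0.73 to 2.40 CPM. The lowest CT26 tumor was above the highest 4T1 tumor for each of these receptors, although 4T1 values of Klrd1 and Ncr1 rest on few reads.

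Cd8a, the only gene of the set tied to the CD8 T cell coreceptor, read 6.75, 10.3, 7.38, 10.6 and 6.04 CPM in CT26 alum tumors and 0.685, 2.31, 1.28, 0.12 and 0.524 CPM in 4T1 alum tumors. Il2rb was the most uneven gene within CT26 alum, with 48.0, 57.2, 31.3, 27.9 and 12.1 CPM, against 5.14, 6.92, 2.19, 4.2005 and 2.36 CPM in 4T1 alum tumors. Replicate 5 was the lowest CT26 alum tumor for Il2rb, Klrk1, Ncr1, Gzmb, Prf1, Ctsw and Cd8a.

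**Figure D1:**
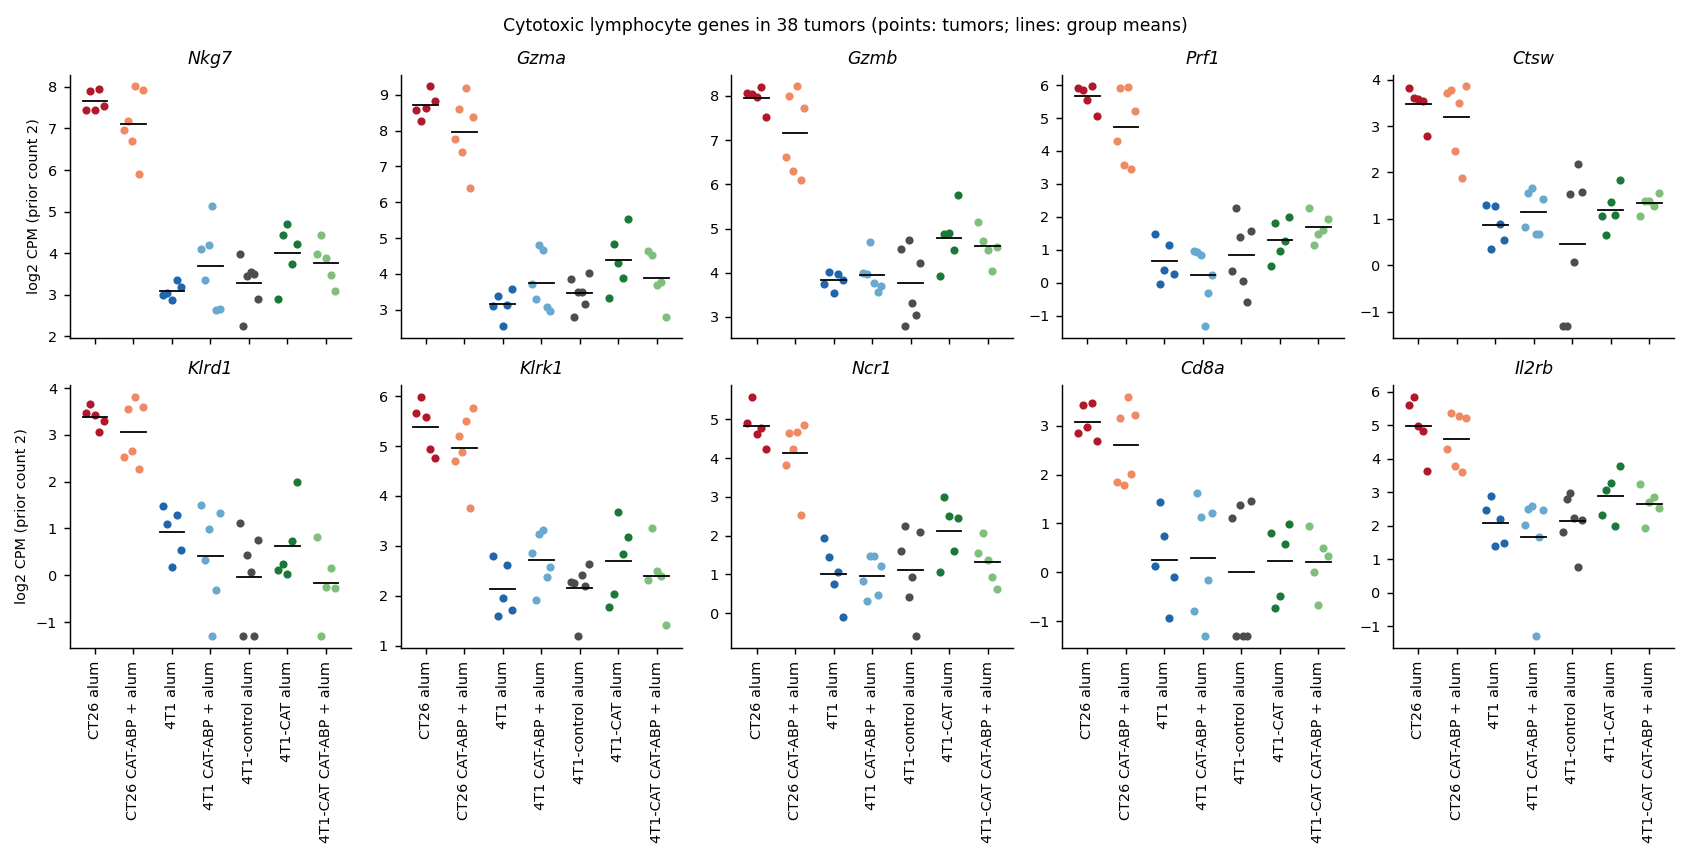
Level of each of the 10 genes as log2 CPM with a prior count of 2 (y axis) in 38 single tumors (points) of 7 groups (x axis), with group means as lines and a separate y scale for each gene. The means of both CT26 groups lie above those of the 5 groups of the 4T1 lines, with single tumors overlapping for Ctsw, Il2rb and Ncr1, and the CT26 CAT-ABP + alum tumors spread more widely than the CT26 alum tumors for most genes. Tumors without a read lie at the lowest values of their panels.

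When all 11 CT26 tumors were set against all 27 tumors of the 4T1 lines, 7 of the 10 genes did not overlap, against 5.34% of the 14646 genes compared. The exceptions were Ctsw, Il2rb and Ncr1. Their lowest CT26 tumors held 3.27, 11.6 and 5.40 CPM, and the highest tumors of the 4T1 lines held 4.15, 13.4 and 7.61 CPM. Across the 7 groups together all 10 genes differed by edgeR's quasi-likelihood F test with Benjamini-Hochberg adjustment over all genes, where 54.7% of 14646 genes passed. The adjusted p ran from 3.4e-19 for Gzma to 2.3e-07 for Cd8a.

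The 10 genes lie on 7 chromosomes of the mouse genome (GRCm38, GENCODE M21 gene bounds). Nkg7 (chr7:43437073-43438249) and Ncr1 (chr7:4337724-4345164) are on chromosome 7. Klrd1 (chr6:129591782-129598775), Klrk1 (chr6:129610323-129623864) and Cd8a (chr6:71373427-71379173) are on chromosome 6, where Klrd1 and Klrk1 are neighbours. Gzma (chr13:113093825-113100981), Gzmb (chr14:56258838-56262260), Prf1 (chr10:61297833-61304680), Ctsw (chr19:5465043-5468507) and Il2rb (chr15:78479256-78495271) are each on a chromosome of their own. Since the genes moved together between the models, the 250 bases before the RefSeq start of each gene (GRCm38.p6) were searched on both strands for 4 short motifs of factors known in cytotoxic lymphocytes. A promoter was matched for 7 of the 10 genes, all but Klrd1, Ctsw and Il2rb. The RUNX core TGTGGT occurred in 6 of the 7, all but Cd8a, and in 14.0% of 32851 promoters of the same length. The T-box motif GGTGTGA occurred in 1 of 7 (3.33% of all promoters), the ETS core AGGAAG in 2 of 7 (29.5%) and the AP-1 motif TGACTCA in 1 of 7 (4.46%). A match is a run of letters and was not tested as a binding site. The promoters of 4 genes with the RUNX core are shown 5′ to 3′ on the strand of the gene. They are those where bases shortly after the RefSeq start occur in a GENCODE transcript of the gene, whose own start may differ. Motif matches on either strand are in capitals, so that the RUNX core may read ACCACA. For Nkg7 (chr7:43436888-43437137, plus strand) the capitals mark the RUNX core, the ETS core and the T-box motif in that order, for Gzma (chr13:113100982-113101231, minus strand) and Klrk1 (chr6:129623865-129624114, minus strand) a single RUNX core, and for Ncr1 (chr7:4337465-4337714, plus strand) a pair of RUNX cores.
Nkg7: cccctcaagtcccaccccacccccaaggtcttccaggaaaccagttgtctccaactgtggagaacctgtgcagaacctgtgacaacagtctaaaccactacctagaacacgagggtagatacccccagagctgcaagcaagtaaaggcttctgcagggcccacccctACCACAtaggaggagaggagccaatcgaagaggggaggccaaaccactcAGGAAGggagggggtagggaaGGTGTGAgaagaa
Gzma: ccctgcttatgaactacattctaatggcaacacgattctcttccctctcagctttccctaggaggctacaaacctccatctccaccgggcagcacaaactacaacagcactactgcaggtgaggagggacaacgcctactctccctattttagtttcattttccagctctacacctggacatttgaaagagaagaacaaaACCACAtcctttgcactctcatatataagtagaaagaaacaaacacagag
Klrk1: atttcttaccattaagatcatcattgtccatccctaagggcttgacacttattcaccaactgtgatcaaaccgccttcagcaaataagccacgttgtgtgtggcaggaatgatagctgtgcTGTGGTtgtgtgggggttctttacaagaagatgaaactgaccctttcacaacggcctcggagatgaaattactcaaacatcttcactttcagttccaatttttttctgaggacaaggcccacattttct
Ncr1: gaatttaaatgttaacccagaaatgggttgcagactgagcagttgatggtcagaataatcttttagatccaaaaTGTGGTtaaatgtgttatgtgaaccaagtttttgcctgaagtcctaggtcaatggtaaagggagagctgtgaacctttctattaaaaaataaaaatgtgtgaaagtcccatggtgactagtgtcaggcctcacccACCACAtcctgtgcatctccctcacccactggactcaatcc

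The question of the tumor model was tested in tumors given alum alone and again, in other tumors, in those given CAT-ABP + alum. In both, CT26 tumors came from 1e+06 cells and 4T1 tumors from 5e+05, so line and number of cells cannot be told apart. With alum alone all 10 genes were lower in 4T1 than in CT26 tumors, against 21.3% of 12817 genes called lower. The groups did not overlap for any of the 10 genes, against 14.3% of genes without overlap in that direction. The change of Gzma was a log2 fold change of -5.62 (SE 0.245, adjusted p = 2.2e-10), a 49.1-fold lower level. Prf1 fell by 5.26 (SE 0.291, adjusted p = 2.2e-09), Nkg7 by 4.62 (SE 0.175, adjusted p = 8.2e-11) and Gzmb by 4.18 (SE 0.172, adjusted p = 1.2e-10) on the log2 scale. Ctsw fell less, by 2.85 (SE 0.308). The NK receptors Ncr1, Klrk1 and Klrd1 had log2 fold changes of -4.03 (SE 0.348), -3.33 (SE 0.296) and -2.66 (SE 0.311), with adjusted p-values of 2.2e-07, 3.0e-07 and 5.7e-06. Cd8a and Il2rb had -3.14 (SE 0.478) and -3.10 (SE 0.398), with the largest adjusted p of the set, 8.0e-05, for Cd8a. The median over the 10 genes was -3.68, beside -0.02 over all genes tested. Only 2 of the 5 4T1 alum tumors shared index tags with the CT26 tumors. With these 2 alone against the 5 CT26 alum tumors all 10 genes were still called, with -5.52 for Gzma, -4.71 for Nkg7 and -2.35 for Cd8a.

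In the tumors given CAT-ABP + alum, which all shared one pair of tag sets, the 10 genes were again lower in 4T1, against 21.8% of 13016 genes called lower. No gene overlapped between the groups, against 11.5% of genes in that direction. The log2 fold changes were -4.98 (SE 0.548) for Prf1, -4.38 (SE 0.458) for Gzma, -3.66 (SE 0.392) for Ncr1, -3.55 (SE 0.425) for Nkg7 and -3.39 (SE 0.364) for Gzmb. Klrd1, Il2rb, Klrk1, Ctsw and Cd8a followed with -2.67, -2.66, -2.45, -2.31 and -2.29, the last with an adjusted p of 0.0015. The folds ran from 4.88 for Cd8a to 31.6 for Prf1, and the median was -3.03. Standard errors were larger than in the alum tumors for 9 of the 10 genes, all but Il2rb.

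**Figure D2:**
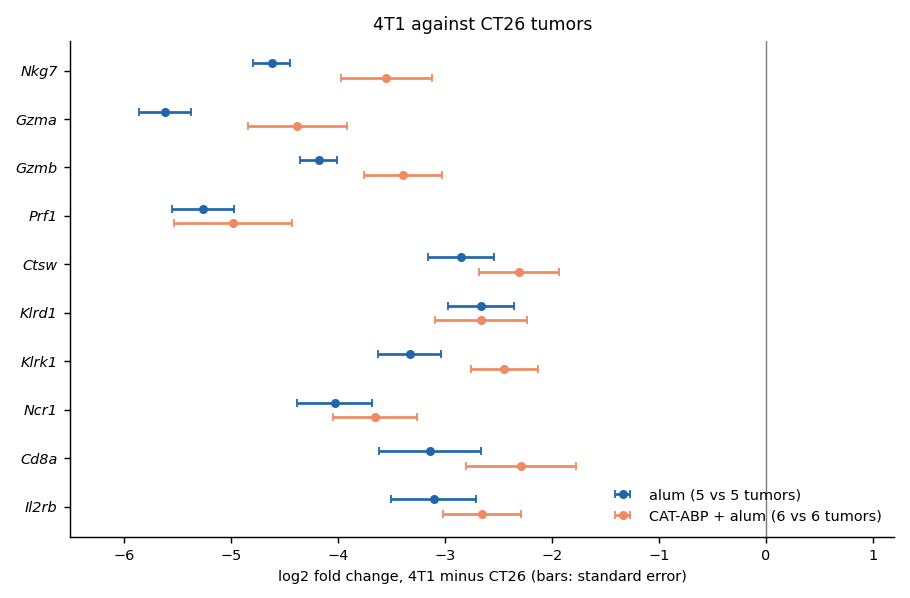
Log2 fold change of 4T1 minus CT26 tumors (x axis, bars are standard errors) for the 10 genes (y axis), in tumors given alum (5 against 5) and in other tumors given CAT-ABP + alum (6 against 6). All 20 estimates lie below 0, from -5.62 for Gzma in alum tumors to -2.29 for Cd8a in CAT-ABP + alum tumors.

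Other genes of the same machinery were read from lists chosen by function. The filter on low counts kept a gene with enough counts in 1 model alone and dropped genes low in both. List genes low in 4T1 alone thus entered through their CT26 counts, which tilts the counts of tested genes toward lower. The shares over all genes were taken under the same filter. Of the other granule proteins and death effectors, 16 of 21 were tested with alum alone: 10 were lower in 4T1 and 2 were higher, where 21.3% and 21.1% of all genes were, with a median of -0.98. Gzmc and Gzmd, granzymes of the mouse cluster beside Gzmb, changed by -3.29 (SE 0.374) and -4.07 (SE 0.605), and Fasl, the death ligand, by -3.31 (SE 0.424). Cst7, a cysteine protease inhibitor of granules, changed by -1.99 (SE 0.256). Gzmf held 2.44 to 62.0 CPM in CT26 alum tumors and 0 to 1.64 CPM in 4T1 alum tumors, with a 4T1 median of 0. Reads of these granzymes could be divided between near-identical copies, which makes each single value uncertain. Stxbp2, a secretion protein that many cells use, was higher in 4T1 by 0.98 (SE 0.157).

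Of the 22 NK receptors and adaptors only 11 were tested, with 9 lower and 1 higher. Klrc1, Slamf7 and Klrg1, named next, passed the filter through CT26. Klrc1, an NKG2 partner of CD94, changed by -4.60 (SE 0.376), Slamf7 by -3.90 (SE 0.409) and Klrg1 by -3.44 (SE 0.465), with medians of 2 to 5 counts in 4T1 alum tumors. The exception was Sh2d1b1, an adaptor, which was higher by 0.91 (SE 0.251). Of the T cell receptor complex and CD8 beta, 9 of 10 tested genes were lower and none higher, among them Trbc2 at -2.67 (SE 0.193), Trbc1 at -2.44 (SE 0.171), Cd3d at -2.55 (SE 0.278), Cd3g at -2.44 (SE 0.212) and the kinase gene Lck at -2.06 (SE 0.233). Their median of -2.42 was nearer to 0 than the -3.68 of the cytotoxic genes, a difference that was not tested.

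Against the 21.3% of all genes called lower, 3 of 9 tested genes of the IL-2 and IL-15 axis were lower: Il2rg, the common gamma chain, by -2.43 (SE 0.222), Il15 by -1.97 (SE 0.209) and Socs1 by -1.93 (SE 0.585). The effector transcription factors, with 3 of 10 lower, were also near that share, and Hopx changed by -2.27 (SE 0.361), Id2 by -1.03 (SE 0.173) and Zeb2 by -0.94 (SE 0.179). Among ligands of the receptors 6 of 12 were lower and 2 higher. The class I genes B2m, H2-D1 and H2-K1 changed by -1.48, -0.94 and -0.92, and Pvr, a ligand of CD226, by -0.97. The NKG2D ligands Raet1e and H60b were the 2 higher, by 0.70 (SE 0.178) and 1.22 (SE 0.334).

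Chemokines and receptors of cytotoxic cells had 8 of 11 tested genes lower and 1 higher. Cxcl9 and Cxcl10, which attract cells with CXCR3, changed by -4.41 (SE 0.432) and -2.81 (SE 0.255), and Xcl1 and Ccl5, which cytotoxic cells themselves make, by -3.70 (SE 0.433) and -3.17 (SE 0.243). Cx3cr1 was higher in 4T1, with 20.7 to 29.0 CPM against 1.19 to 3.01 CPM in CT26 alum tumors, a log2 fold change of 3.47 (SE 0.24). CX3CR1 is also a receptor of macrophages.

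In the tumors given CAT-ABP + alum, where 21.8% of genes were called lower and 23.7% higher, these lists read 8 lower and 2 higher of 14 for granule genes, 6 and 1 of 8 for NK receptors, 9 and 1 of 10 for the T cell receptor complex, 3 and 1 of 9 for the IL-2 and IL-15 axis, 3 and 2 of 10 for transcription factors, 5 and 1 of 11 for ligands, and 7 and 1 of 11 for chemokines. Fasl, Slamf7, Trbc2, Cxcl9 and B2m had -2.66, -2.42, -1.77, -3.46 and -1.26 there, and Cx3cr1 had 1.79. Hopx, at -0.74 (adjusted p = 0.082), and H60b, at 0.46 (adjusted p = 0.18), did not pass.

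Markers of some other cell types also differed between the models. The counts of genes lower or higher are from the alum comparison, where 21.3% of all genes were called lower in 4T1 and 21.1% higher. The 7 T cell markers summed to 87.7 to 215 CPM in CT26 tumors and 21.05 to 124 CPM in tumors of the 4T1 lines, with 5 of 5 tested lower in 4T1 alum tumors. The 6 NK markers summed to 11.1 to 45.9 against 2.40 to 13.02 CPM, with 2 of 3 tested lower. The 7 macrophage markers ran from 792 to 1247 against 590 to 1199 CPM, with 2 of 7 lower, near the share of all genes. The 7 mast cell and basophil markers ran from 407 to 1428 against 64.8 to 239 CPM, with 4 of 5 lower and 1 higher. Epithelial markers, which were low in CT26 despite its carcinoma label, ran from 18.0 to 30.2 against 1471 to 2739 CPM, with all 4 higher. Markers of lymph node stroma and follicles stayed at or under 11.5 CPM in every tumor. The part of any of these markers in the result was not tested.

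Within CT26, extracellular catalase was compared in 6 CAT-ABP + alum tumors and 5 alum tumors. All 10 genes were tested, 0 were called, against 0% of 12830 genes, and 0 had an unadjusted p under 0.05 by edgeR, against 2.42% of genes. As no gene at all was called, the count of 0 is not particular to the cytotoxic genes. The study's own DESeq2 analysis of these groups did report genes past its threshold. DESeq2 also called 0 of the 10 and had 0 at that level. All 10 log2 fold changes were below 0, where 50.7% of all genes were, and they ran from -0.62 (SE 0.407) for Prf1 to -0.16 (SE 0.337) for Ctsw. Between them lay Ncr1 at -0.59, Gzmb at -0.58, Gzma at -0.53, Il2rb at -0.39, Nkg7 at -0.39, Klrk1 at -0.38, Cd8a at -0.31 and Klrd1 at -0.22, with standard errors of 0.289 to 0.389 and an adjusted p of 0.9997 for each. The genes rose and fell together over the same tumors, so that their shared sign is not a count of independent results.

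The CT26 CAT-ABP + alum tumors were uneven. Summed over the 10 genes, replicates 1 to 6 held 538, 988.6, 436, 1339, 263 and 977 CPM. The 5 alum tumors held 1037, 1067, 997, 1315 and 935 CPM. Replicates 2 and 6 were among the 3 highest of the 6 tumors for all 10 genes and replicate 4 for 9 of them, whereas replicates 3 and 5 were among the 3 highest for 0 genes and replicate 1 for 1, Ctsw. Gzma shows the range, with 217, 391, 168, 579.8, 83.6 and 332 CPM in replicates 1 to 6. Prf1 read 19.5, 60.3, 11.4, 61.4, 10.5 and 36.7 CPM in the same order. The SD of log2 CPM was larger in CAT-ABP + alum than in alum tumors for 9 of the 10 genes, such as 0.99 against 0.36 for Gzma and 1.13 against 0.37 for Prf1. Il2rb, at 0.81 against 0.86, was the exception. This difference in spread was not tested.

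Other measures of the same 6 tumors are given in the order of replicates 1 to 6. Total counts were 4575210, 9077549, 6721505, 5233804, 7009040 and 4135199, so that replicate 5, the lowest for the cytotoxic genes, was among the deepest. T cell markers summed to 118, 132, 123, 185, 87.7 and 179 CPM, and NK markers to 21.4, 29.3, 16.1, 32.8, 11.1 and 34.0 CPM. Macrophage markers ran from 800.0 CPM in replicate 5 to 1139 CPM in replicate 6. Skeletal muscle markers summed to 313, 187, 175, 403, 267 and 473 CPM. Replicate 5 was the lowest for the T cell, NK and macrophage markers. It was also the lowest for helper and regulatory T cell, B and plasma cell, neutrophil, fibroblast and endothelial markers. It was not the lowest for dendritic cell, mast cell and basophil, lymph node, epithelial, erythroid or muscle markers. The part of these markers in the spread was not tested.

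**Figure D3:**
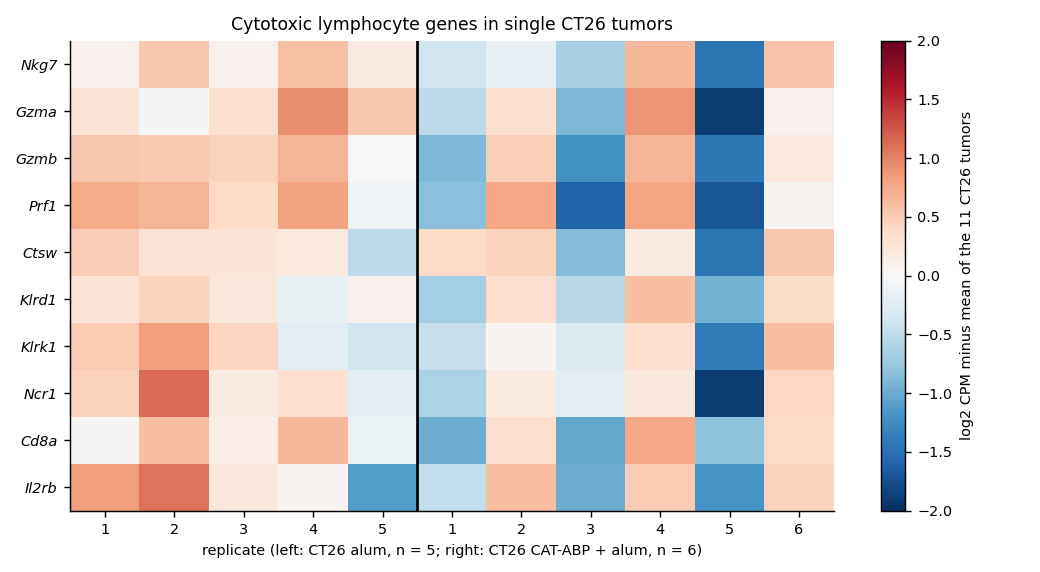
Log2 CPM of each gene (rows) in single CT26 tumors (columns, 5 alum tumors on the left and 6 CAT-ABP + alum tumors on the right), as the difference from the mean of the 11 tumors (color). Replicates 1, 3 and 5 given CAT-ABP + alum are low for nearly all genes, and replicates 2, 4 and 6 are at or near the level of the alum tumors.

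The joint variation was measured as the correlation of each gene's deviations from its group means with those of the other 9 genes, as a description over tumors that share library preparation and depth. Within the 11 CT26 tumors Pearson r ran from 0.80 for Gzma to 0.96 for Gzmb, and the 45 gene pairs had a median r of 0.80. Within the 27 tumors of the 4T1 lines r ran from 0.05 for Ctsw to 0.79 for Gzmb, and the pairs had a median of 0.23, at counts that were far lower. The precision of each gene differed too. Between the 2 technical libraries of a CT26 tumor r was 0.84 or more for Nkg7, Gzma, Gzmb, Prf1, Klrk1, Ncr1 and Il2rb, but 0.58 for Ctsw, 0.52 for Cd8a and 0.05 for Klrd1.

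The 8 other genes whose deviations over the 38 tumors were most like the mean of the cytotoxic genes, among 13002 genes with a mean of at least 10 counts, were Serpina3g (r = 0.83), H2-Eb1 (0.81), Dnase1l3 (0.78), Ly6i (0.77), Cd274 (0.77), Trbc2 (0.77), Psmb9 (0.76) and Pdcd1lg2 (0.76). Trbc2 is a constant gene of the T cell receptor, Psmb9 a subunit of the immunoproteasome, H2-Eb1 a class II gene, and Cd274 and Pdcd1lg2 encode the ligands of PD-1. Within CT26 tumors r was 0.97 for Psmb9 and for Ly6i. Psmb9 read 117 to 307 CPM in CT26 CAT-ABP + alum tumors, 295 to 363 CPM in CT26 alum tumors and 60.2 to 154 CPM in tumors of the 4T1 lines. All 8 genes were also lower in 4T1 than in CT26 alum tumors, with -1.33 (SE 0.376) for H2-Eb1, -1.72 (SE 0.133) for Psmb9 and -3.06 (SE 0.349) for Cd274. Ly6i had the largest change, -6.61 (SE 0.639), a fitted value that rests on few 4T1 counts, and ran from 11.6 to 66.9 CPM in CT26 alum and from 0 to 1.44 CPM in 4T1 alum tumors.

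**Figure D4:**
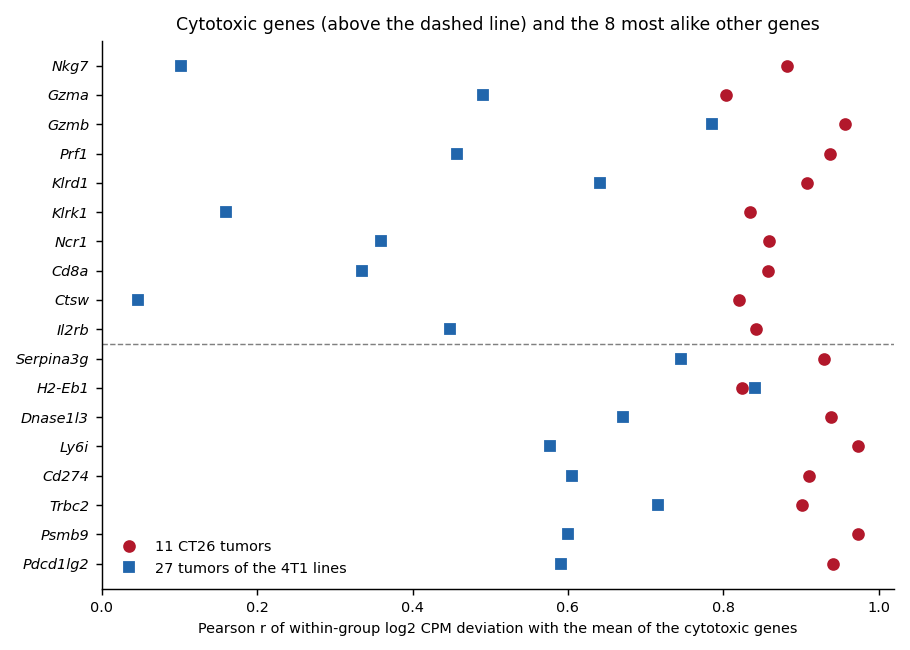
Pearson r (x axis) of within-group deviations in log2 CPM with the mean of the cytotoxic genes, for the 10 genes (each against the other 9) and, under the dashed line, the 8 other genes with the highest r over all tumors. Circles are the 11 CT26 tumors and squares the 27 tumors of the 4T1 lines. Circles of the cytotoxic genes lie at 0.80 or above, and the squares spread from 0.05 to 0.79.

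Extracellular catalase in 4T1 tumors was compared in 6 CAT-ABP + alum and 5 alum tumors. Only 6 of the 10 genes could be tested, since Prf1, Klrd1, Cd8a and Ctsw had too few counts. None of the 6 was called by edgeR, against 0% of 13092 genes, and 0 had an unadjusted p under 0.05, against 2.88% of genes. DESeq2 called 0 as well and had 2 with an unadjusted p under 0.05, a count whose share over all genes with DESeq2 is not given here. The log2 fold changes of Gzma, Nkg7 and Klrk1 were 0.66 (SE 0.337), 0.65 (SE 0.361) and 0.50 (SE 0.319), with an adjusted p of 0.9993 for each. The 6 genes ran from -0.24 to 0.66 with a median of 0.33, and Ncr1 was the lowest. Nkg7 read 16.7, 9.92, 17.9, 34.8, 5.85 and 5.94 CPM in CAT-ABP + alum tumors, so that replicates 5 and 6 were under all 5 alum tumors and the other 4 above them. The value of 34.8 CPM came from replicate 4, with 837403 counts in all. Without it Nkg7 had 0.41 and Gzma 0.54. With the 2 alum tumors that share index tags alone as controls they had 0.76 and 0.58.

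Intracellular catalase was compared in 5 4T1-CAT alum and 6 4T1-control alum tumors, both on the DOX diet. Here 7 of the 10 genes were tested, all but Klrd1, Cd8a and Ctsw, and 0 were called, against 0% of 12534 genes. Again no gene at all was called, whereas the study's own DESeq2 analysis of these groups reported genes past its threshold. All 7 log2 fold changes were above 0, where 48.9% of all genes were, and 4 genes had an unadjusted p under 0.05, against 3.57% of genes in that direction. These 4 were Ncr1 at 1.16 (SE 0.531), Gzma at 0.97 (SE 0.333), Gzmb at 0.88 (SE 0.341) and Nkg7 at 0.68 (SE 0.299), with adjusted p-values of 0.96, 0.71, 0.83 and 0.93. Il2rb, Klrk1 and Prf1 had 0.84 (SE 0.419), 0.63 (SE 0.382) and 0.59 (SE 0.541). DESeq2 also called 0 of them and had 4 with an unadjusted p under 0.05. With no filter on low counts Gzma (0.97, adjusted p = 0.023) and Gzmb (0.88, adjusted p = 0.036) were called by edgeR. The shares of all genes with DESeq2 or with no filter are not given here. Over all settings of this comparison, 0 to 131 of all genes were called.

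The tumors behind this comparison overlapped for each gene. Gzma read 9.72, 28.1, 19.4, 14.3 and 46.1 CPM in 4T1-CAT alum tumors and ran from 6.58 through a median of 10.9 to 15.8 CPM in 4T1-control alum tumors. Gzmb read 14.9, 28.9, 29.2, 22.5 and 53.6 CPM against 6.58, 13.9 and 26.3 CPM. Replicate 5 was the highest 4T1-CAT alum tumor for both granzymes and replicate 1 the lowest. Replicates 2 and 3 are the tumors with the libraries of the same tag, and in technical replicate 1 alone, which leaves both libraries out, only 2 genes of the set had enough counts and 0 were called. The exact two-sided permutation test over tumors gave p = 0.0455 for Gzma, 0.0584 for Gzmb, 0.104 for Nkg7 and 0.121 for Ncr1 on log2 CPM, among 10 genes tested and without adjustment.

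Other lists were read in the same tumors, and edgeR called none of their genes. Of the T cell receptor complex 8 of 8 tested genes had log2 fold changes above 0 and 5 an unadjusted p under 0.05, with Trbc2 at 1.30 (SE 0.259, adjusted p = 0.36). DESeq2 called Trbc2, with an adjusted p of 0.0139. Of the other granule genes 10 of 13 were above 0 and 1 had an unadjusted p under 0.05. Of the chemokines and receptors 7 of 9 were above 0, 3 of them with an unadjusted p under 0.05, and 1 gene was lower at that level. Markers of skeletal muscle, a tissue beside the tumors, were above 0 for 4 of 4 genes, all with an unadjusted p under 0.05, and summed to 220 to 673 CPM in 4T1-CAT alum against 85.7 to 362 CPM in 4T1-control alum tumors. T cell markers summed to 37.7 to 124 against 33.5 to 54.8 CPM, and neutrophil markers to 97.9 to 183 against 58.8 to 95.0 CPM. Epithelial markers were above 0 for 1 of 4. Fibroblast markers were above 0 for 5 of 5, macrophage markers for 6 of 6 and B and plasma cell markers for 3 of 3. Endothelial, erythroid and mast cell and basophil markers were above 0 for 4 of 4 each. NK receptors and adaptors were above 0 for 6 of 6, with 0 at an unadjusted p under 0.05. The 1 NK marker tested, Eomes, was at -0.02, and ligands of the receptors were above 0 for 6 of 12. The part of these cell types in the values of the cytotoxic genes was not tested.

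When CAT-ABP was added to 4T1-CAT tumors (5 tumors against 5), 8 genes were tested and 0 were called, against 0% of 13093 genes. Ncr1 had a log2 fold change of -1.003 (SE 0.439, unadjusted p = 0.038, adjusted p = 0.30) and was the only gene of the 8 with an unadjusted p under 0.05, against 15.3% of all genes in either direction. Its values were 2.53, 3.83, 2.19, 1.51 and 1.13 CPM with CAT-ABP and 1.68, 7.61, 5.23, 2.64 and 5.13 CPM with alum alone, which overlap. Gzma had -0.54 (SE 0.404) and Prf1 0.43 (SE 0.377). DESeq2 called 249 genes in this comparison and 0 of the cytotoxic genes.

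**Figure D5:**
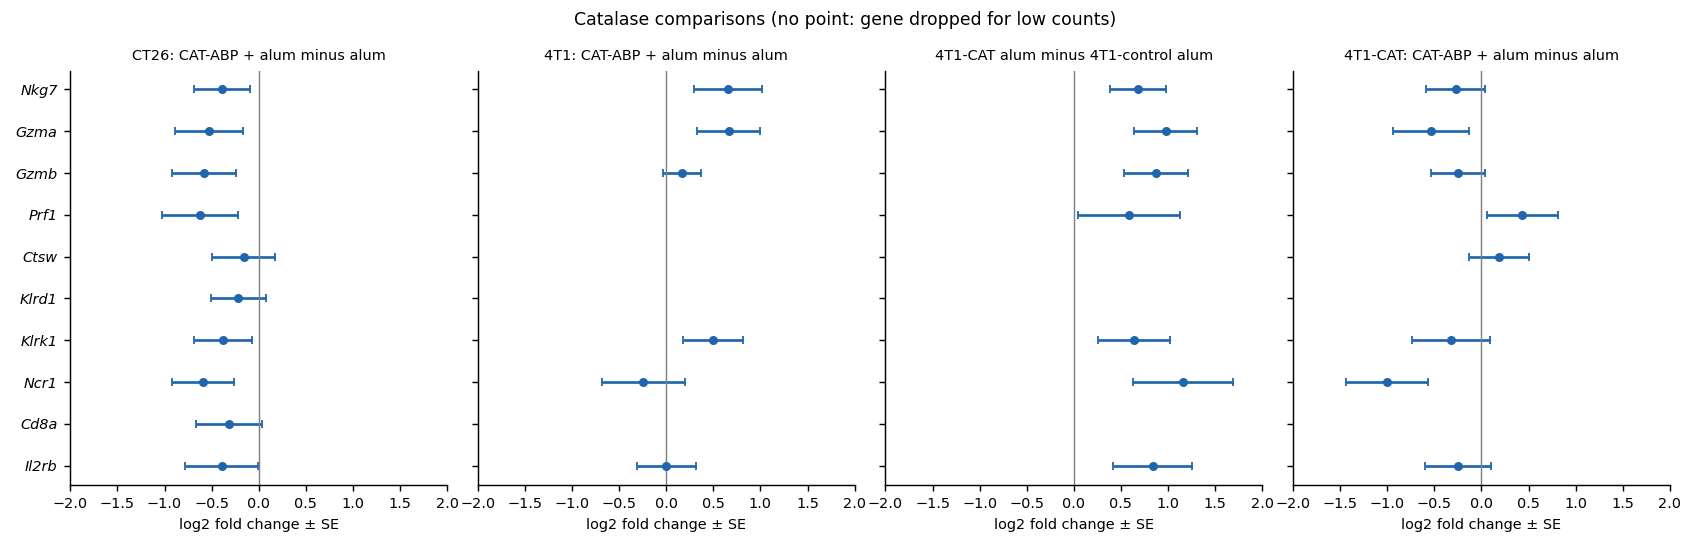
Log2 fold change with its standard error (x axis) of the cytotoxic genes (y axis) in the 4 catalase comparisons, CT26 and 4T1 with extracellular catalase, 4T1-CAT against 4T1-control, and 4T1-CAT with extracellular catalase. Genes with too few counts have no point. All 10 points are below 0 in CT26 and all 7 above 0 for intracellular catalase, and no point passed the adjusted threshold.

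The difference between the effects was tested as an interaction. The effect of extracellular catalase in 4T1 minus that in CT26 was 1.22 for Gzma (unadjusted p = 0.035) and 1.05 for Nkg7 (unadjusted p = 0.048) on the log2 scale. Both had an adjusted p of 1, and 0 of 10 genes were called, against 0% of 14160. These 2 of 10 genes with an unadjusted p under 0.05 stood beside 3.59% of all genes by edgeR, and DESeq2 called 0 with 3 at that level. The effect in 4T1-CAT minus that in 4T1 was -1.20 for Gzma (unadjusted p = 0.0485) and -0.91 for Nkg7, with 0 of 9 genes called, against 0% of 13851. Only Gzma of the 9 had an unadjusted p under 0.05, beside 8.79% of all genes by edgeR, and DESeq2 called 0 with 2 at that level. For both interactions the share of all genes with DESeq2 is not given here, so its counts have no background beside them. The comparisons share control tumors with the single effects above. In both interactions the 4T1 effect is partly mixed with index tags, since the 4T1 alum tumors were divided between the pairs of tag sets. All 4T1 CAT-ABP + alum tumors shared a pair with CT26, and all 4T1-CAT tumors had the other. The interactions were not repeated among tumors with shared index tags.

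The engineered control line on the DOX diet was set against the parental line, both given alum (6 tumors against 5), where line and diet cannot be told apart. Of 5 genes tested 0 were called, against 0% of 12431 genes, and 0 had an unadjusted p under 0.05 by edgeR or DESeq2, against 10.5% of genes by edgeR. Gzma had 0.42 (SE 0.241) and Nkg7 0.33 (SE 0.234). Index tags were also partly mixed with this comparison, since only 3 of the 5 4T1 alum tumors shared tags with the 4T1-control tumors. With these 3 alone as the parental group, Gzma had 0.50 and Nkg7 0.32 by edgeR, with adjusted p-values of 0.80 and 0.93. Nkg7 ran from 4.39 through 10.8 to 15.4 CPM in 4T1-control tumors and from 6.94 to 9.84 CPM in 4T1 tumors, and the groups overlapped. The tumors with the lowest and the highest Gzma in 4T1-control alum, replicates 2 and 6, held 493044 and 4413738 counts.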

How the data were processed

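RNA of 38 whole tumors was sequenced by 3′ digital gene expression (HT3DGE) in 2 technical libraries per tumor. The authors deposited estimated counts per gene and library, not normalized, on GENCODE M21 identifiers (GRCm38). The aligner is not given in the sources used here. Of the nonzero values, 39.7% were not whole, so values were summed per tumor and rounded. The authors left out technical replicates of low depth without naming them, and all 76 libraries were kept here. Symbols came from the deposited gene table.

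Groups came from the sample labels. Genes with few counts were dropped by edgeR's filterByExpr, counts were scaled by TMM, and each comparison was fitted on its own groups with edgeR's quasi-likelihood test (edgeR 4.0.16, R 4.3.3) with Benjamini-Hochberg adjustment over all genes at 0.05. Interactions used the 4 groups concerned. The SE of an edgeR log2 fold change is its absolute value divided by the square root of the F statistic of its test. It is thus implied by the test, not estimated apart, and need not match the p-value for every gene. The scripts were tested on simulated data. Alternatives were DESeq2 1.42.0, limma 3.58.1 voom with quality weights, other filters and scaling, a single model, a replicate block, single technical replicates, low-depth libraries left out and each tumor left out. Using only tumors that share index tags, and leaving out tumors under 1e+06 counts, were chosen after seeing the data.

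The members and the wider lists were chosen with earlier results of these data known. All 10 members were named, then up to 5 genes per direction and list by adjusted p, and the 8 genes of most similar pattern. Genes named for intracellular catalase that passed no threshold, and Gzmf, were chosen after their values were seen. Labels do not say whether same-numbered tumors share a cage or a day. Promoters were RefSeq sequences matched by symbol. Figures were drawn with matplotlib 3.10.9.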

Additional observations from a re-analysis of the deposited data

Results flagged for a closer look

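In 4 of the 70 sets of a gene and a group, a single tumor stood far from the others of its group by Dixon's criterion, which chance meets in about 1 of 20 sets. For Gzmb, 4T1 CAT-ABP + alum replicate 3 held 25.5 CPM (128 counts), above 11.5 to 15.5 CPM in the other tumors. Klrk1 was at 1.88 CPM (6 counts) in 4T1-control alum replicate 3, below 4.15 to 5.77 CPM in the others. Ctsw was at 6.52 CPM (27 counts) in CT26 alum replicate 5, below 11.2 to 13.7 CPM. Il2rb was at 0 CPM (0 counts) in 4T1 CAT-ABP + alum replicate 4, which had 837403 counts in all, below 2.78 to 5.57 CPM in the others.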

How the results depend on the processing

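The number of cytotoxic genes called stayed at 10 in both comparisons of 4T1 with CT26 and over the 7 groups, and at 0 in the other comparisons, when each tumor was left out in turn. In other settings 2 genes were called for intracellular catalase with no filter on low counts, and 6 of the 6 tested were called for 4T1 against CT26 with CAT-ABP + alum in technical replicate 2 alone. In technical replicate 2 alone the alum comparison called 7 of the 7 tested, since fewer genes had enough counts. For the same reason a mean of at least 20 counts gave 8 of 8 tested over the 7 groups and 9 of 9 in the alum comparison, and technical replicate 1 alone gave 9 of 9 with CAT-ABP + alum. Ctsw in CT26 with extracellular catalase turned to 0.029 without CT26 CAT-ABP + alum replicate 5 and was -0.31 without CT26 alum replicate 5. The cause was not tested. Over all genes, calls ranged from 0 to 131 for intracellular catalase, from 0 to 249 for extracellular catalase in 4T1-CAT, from 0 to 16 in 4T1, from 0 to 1 in CT26 and from 0 to 130 for 4T1-control against 4T1. With the replicate block the cytotoxic genes called were 10 in both comparisons of 4T1 with CT26 and over the 7 groups, and 0 elsewhere. For CT26 with extracellular catalase 8 of 10 had an unadjusted p under 0.05 by edgeR with the block. The share of all genes at that level with the block is not given here, so this count has no background beside it. In that CT26 comparison same-numbered tumors did not deviate together in every pair (r from -0.20 to 0.33), so the numbers were not taken as pairs. Of the other named genes in the alum comparison, Sh2d1b1, Socs1, H60b and H2-Eb1 no longer passed among tumors with shared index tags. Klrd1 and Cd8a were not tested in the pairwise comparisons within the 4T1 lines, where they did not pass the filter on low counts.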
